A study of Mus musculus with 16 samples.

Results

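The gene set of fatty acid oxidation and ketone body metabolism was followed in the liver of db/db mice that had received a vector encoding arcA or a vector encoding green fluorescent protein (GFP). Members were taken by symbol from a list of 35 genes, and all 35 were found among the 40324 distinct symbols of the count table. All 35 also passed the filter on low counts and were among the 14476 genes tested. By the usual site of their products, 19 members were counted as mitochondrial, 9 as peroxisomal and 3 with both organelles (Eci2, Ech1 and Acad11). The other 4 were counted with neither (the regulators Ppara and Ppargc1a, the cytosolic thioesterase Acot1 and the membrane-bound acyl-CoA synthetase Acsl1). Placing Acsl1, whose step precedes entry into mitochondria, with neither is a choice that bears on the counts by compartment. Of ketone body metabolism the list held Bdh1 only.

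The labels call the mice of both groups littermates of the db/db strain, obese and diabetic mice whose leptin receptor is defective, and both received an adeno-associated virus of serotype 8 (AAV8) at about 5 weeks of age. The vector carried GFP in the 8 control mice and arcA in the 8 mice labelled as overexpressing, and liver was taken at 10 weeks of age, 5 weeks after injection. The labels name neither the product of arcA nor the promoter of the vectors, and the count table has no row for arcA or GFP, so transgene expression was not analysed here. Lean mice and db/db mice without a vector were not analysed here. Each liver is 1 library, and the labels do not say which mice came from which litter or cage, so the p-values measure the spread between these livers.

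In hepatocytes, long-chain fatty acids are activated to acyl-CoA, carried into mitochondria as carnitine esters, and shortened by repeated rounds of dehydrogenation, hydration, dehydrogenation and thiolysis. Peroxisomes run a related spiral on very-long-chain, branched and dicarboxylic acids and pass shortened products on to mitochondria. The acetyl-CoA formed can be turned into ketone bodies, and the nuclear receptor PPARA switches on much of this gene set during fasting.

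Of the 35 members, 2 were higher in the arcA livers and 0 were lower at an adjusted p under 0.05 (quasi-likelihood F test of edgeR, Benjamini-Hochberg over all genes tested), against 4.27% of all genes tested that were called higher and 6.57% called lower. Those 2 were Acsl1, which activates long-chain fatty acids, and Eci3, a peroxisomal enoyl-CoA isomerase. At an unadjusted p under 0.05 stood 5 of 35 members, against 3608 of the 14476 genes tested. Beside Acsl1 and Eci3, these were Acot1, Crot and Etfdh. DESeq2 called 4 members higher and 0 lower, as did limma voom. In either direction 2 of 35 members were called, against 10.8% of all genes tested. The median log2 fold change of arcA over GFP was 0.028 over the members and 0.0091 over all genes tested.

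The mitochondrial and the peroxisomal members were read apart. Of the 19 mitochondrial members, 0 were called in either direction and 1 had an unadjusted p under 0.05 (Etfdh). Their median was 0.0017 on the log2 scale, with a range from -0.28 to 0.14. Acsl1, which was called higher, was not counted among these 19. Of the 9 peroxisomal members, 1 was called higher and 0 lower, with a median of 0.086. All 9 peroxisomal estimates were above 0, from 0.012 to 1.15, against 10 of the 19 mitochondrial ones, but Decr2 and Acaa1b fell below 0 under upper-quartile scaling, those and Hsd17b4 with library size alone, and Ehhadh, Acaa1a and Acot4 as well with libraries scaled on hepatocyte markers. Without GFP livers 2, 3 and 5 together, Decr2 (-0.074), Hsd17b4 (-0.034) and Acaa1b (-0.21) were below 0, and the other peroxisomal members stayed above it. Whether the compartments differ was not tested.

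**Figure D1:**
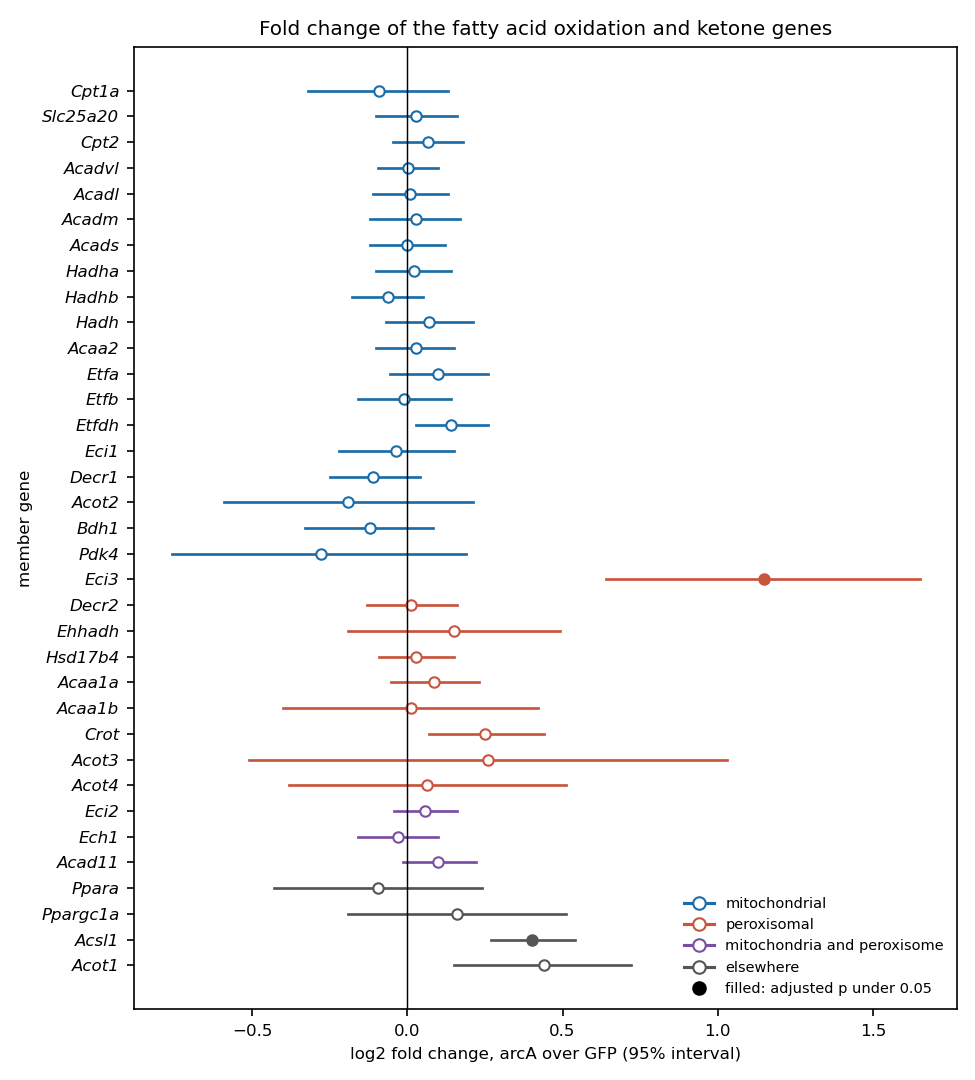
Log2 fold change of each member, arcA over GFP, on the horizontal axis with its 95% interval as a line; members are in rows, coloured by compartment, and filled points mark an adjusted p under 0.05. Acsl1 and Eci3 are the filled points, and the mitochondrial estimates lie between -0.28 and 0.14.

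The regulators come first. Ppara, the fatty acid-sensing nuclear receptor, was counted at 62.3 to 117 CPM (counts scaled to a common library size; median 88.9) in the GFP livers and at 59.3 to 116 CPM (median 78.6) in the arcA livers. The groups overlapped almost fully, and the log2 fold change was -0.095 with a 95% interval from -0.43 to 0.24 (adjusted p = 0.774). Ppargc1a, the coactivator PGC-1alpha, ranged from 6.82 to 14.7 CPM (median 9.96) in GFP and from 7.95 to 14.3 CPM (median 13.1) in arcA. Its log2 fold change was 0.16, with an interval from -0.19 to 0.51 (adjusted p = 0.608). Neither regulator differed beyond the spread between livers, and intervals of this width leave changes of up to 1.43-fold for Ppargc1a within reach.

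Activation and entry into mitochondria held the largest called difference among the abundant members. Acsl1, at chr8:46471037-46536051 on the plus strand of GRCm38, joins long-chain fatty acids to coenzyme A. It stood at 493 to 657 CPM (median 562) in the GFP livers and at 687 to 848 CPM (median 756) in the arcA livers. The lowest arcA liver lay above the highest GFP liver; such a separation, every arcA liver above every GFP liver, was seen in 0.566% of all genes tested and in 1 of 35 members. The mean rose from 573 ± 52.4 to 759 ± 60.4 CPM (SD, n = 8 each), a log2 fold change of 0.40 (SE 0.0669, 95% interval 0.27 to 0.54) or 1.32-fold, with an adjusted p of 0.000678.

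Acsl1 was called in each of the 16 fits that left out 1 liver, at 0.37 to 0.42. The summed level of 19 hepatocyte marker genes was also higher in the arcA livers, 111119 to 129637 CPM against 98743 to 112259, a log2 ratio of means of 0.20. A sum weighs the most abundant markers most. Singly, 4 of the 19 markers were called higher and 0 lower, with log2 fold changes from -0.84 to 0.67 (median 0.21). With library sizes scaled on those markers the estimate for Acsl1 was 0.20 and its adjusted p 0.0176. In pieces of whole liver, fewer cells of a type and less RNA per cell cannot be told apart.

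The carnitine steps after Acsl1 did not pass the test. Cpt1a, the outer-membrane carnitine palmitoyltransferase and the controlled step of entry, ranged from 198 to 346 CPM (median 246) in GFP and from 201 to 314 CPM (median 227) in arcA. Its log2 fold change was -0.092, with an interval from -0.32 to 0.13 (adjusted p = 0.662). Slc25a20, the carnitine-acylcarnitine translocase, had 132 ± 13.4 CPM in GFP and 135 ± 9.67 in arcA, and Cpt2, the inner-membrane transferase, 173 ± 13.4 and 181 ± 10.2 (SD, n = 8 each). Their log2 fold changes were 0.028 and 0.065, and both intervals lay between -0.10 and 0.18.

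The ratio of Acsl1 to Cpt1a within each liver, which does not depend on library scaling, lay between 1.43 and 2.78 in the GFP livers and between 2.19 and 4.13 in the arcA livers. In 7 of 8 arcA livers the ratio exceeded the median of the GFP livers. This pair was chosen after the values were seen, so no test of it is given.

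**Figure D2:**
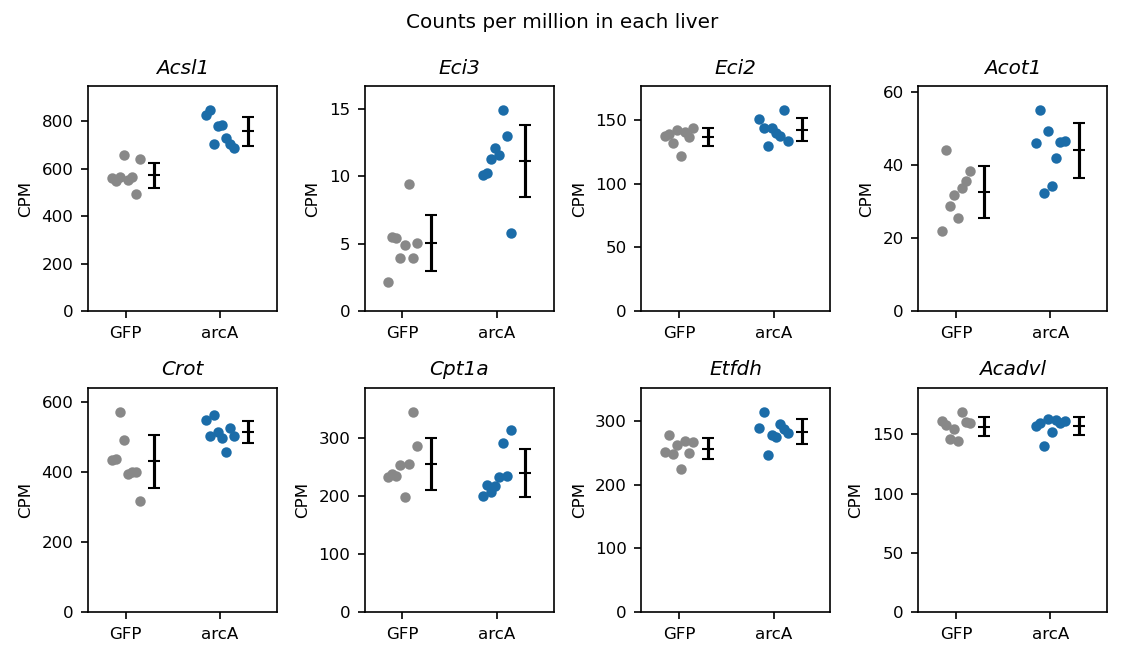
CPM on the vertical axis, from 0, for 8 genes in each of 8 GFP (grey) and 8 arcA (blue) livers; points are livers and bars are the mean ± SD. Acsl1 separates the groups, at 493 to 657 against 687 to 848 CPM, while Eci2, Cpt1a and Acadvl overlap.

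The core enzymes of the mitochondrial spiral were measured closely. All 8 had a 95% interval that lay inside ±0.25 on the log2 scale, that is within 1.19-fold in either direction, against 18 of 35 members (51.4%) and 4729 of all genes tested (32.7%). The acyl-CoA dehydrogenases, which take the first step on chains of falling length, had log2 fold changes of 0.0017 for Acadvl (interval -0.094 to 0.10), 0.0092 for Acadl, 0.027 for Acadm and -0.00074 for Acads. Acadvl, for very long chains, had 156 ± 8.04 CPM in GFP and 157 ± 7.49 CPM in arcA. Acadm, for medium chains, had 386 ± 23.8 and 393 ± 45.5 CPM (SD, n = 8 each).

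The trifunctional protein subunits Hadha and Hadhb, which carry the middle and last steps for long chains, had log2 fold changes of 0.02 and -0.063. Their genes lie beside each other on chromosome 5 in opposite directions, at chr5:30118304-30155162 and chr5:30155248-30184593. Hadh, the dehydrogenase for shorter chains, had 484 ± 47.4 and 508 ± 38.4 CPM, a log2 fold change of 0.07. Acaa2, the mitochondrial thiolase, had 936 ± 29.1 and 955 ± 82.5 CPM, a log2 fold change of 0.028 (interval -0.10 to 0.15). Scaling on the hepatocyte markers lowers the median of all genes by 0.20, and under it Acadvl, Acadl, Acads, Hadha, Hadhb and Acaa2 were called lower, at -0.18 to -0.27, near the shift itself.

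Electrons from the dehydrogenases pass through the electron transfer flavoprotein, encoded by Etfa and Etfb, to its ubiquinone oxidoreductase Etfdh. Etfdh ranged from 225 to 277 CPM (median 256) in GFP and from 246 to 314 (median 284) in arcA, with 7 of 8 arcA livers above the GFP median. Its log2 fold change of 0.14 (interval 0.029 to 0.26) missed the threshold, with an adjusted p of 0.102. Etfa, at 0.10, and Etfb, at -0.01, had adjusted p-values of 0.45 and 0.951.

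Double bonds in the chain are handled by isomerases and reductases, and here the second called member was found. Eci3, at chr13:34946614-34963810 on the minus strand, had 2.15, 5.45, 5.43, 3.93, 4.9, 9.44, 3.92 and 5.04 CPM in GFP livers 1 to 8. In arcA livers 1 to 8 it had 10.1, 10.2, 11.3, 12.1, 11.6, 14.9, 13 and 5.75 CPM. GFP 6 was high for its group and arcA 8 low for its own, so the groups overlapped in these livers, while 7 of 8 arcA livers lay above every GFP liver. The mean rose from 5.03 ± 2.09 to 11.1 ± 2.66 CPM (SD, n = 8 each), a log2 fold change of 1.15 (SE 0.237, 95% interval 0.64 to 1.65) or 2.21-fold, with an adjusted p of 0.00558. Eci3 was called in each of the 16 fits without 1 liver, at 1.03 to 1.35, and at 0.93 under hepatocyte marker scaling.

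Eci3 lies next to its closest relative, Eci2, at chr13:34977748-35027096 on the same strand, whose product serves both organelles. Eci2 ranged from 122 to 144 CPM (median 138) in GFP and from 130 to 158 CPM (median 142) in arcA, with a log2 fold change of 0.057 (interval -0.044 to 0.16, adjusted p = 0.516). The ratio of Eci3 to Eci2 within a liver lay between 0.0156 and 0.0671 in GFP and between 0.0429 and 0.107 in arcA, a description that restates the values of Eci3 on a scale free of library size.

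Because the 2 genes are alike, reads could be shared between them in counting. Their coding sequences agree at 89.5% of 944 aligned bases, and 13.5% of the 50-base stretches of Eci3 occur unchanged in Eci2. The 60 coding bases in which they are least alike, and the 60 in which they do not differ, are shown from the GENCODE M21 transcripts to let the reader see what separates the genes, with differing bases in capitals (24 of 60 in the first pair).
Eci2 coding bases 1096 to 1155: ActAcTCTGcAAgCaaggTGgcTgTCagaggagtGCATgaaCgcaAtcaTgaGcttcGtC
Eci3 coding bases 868 to 927: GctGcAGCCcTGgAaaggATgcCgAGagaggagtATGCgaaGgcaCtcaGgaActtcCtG
Eci2 coding bases 320 to 379: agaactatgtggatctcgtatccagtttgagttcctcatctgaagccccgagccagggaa
Eci3 coding bases 92 to 151: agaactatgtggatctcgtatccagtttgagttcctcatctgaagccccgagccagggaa
Most 50-base stretches differ between the 2 genes, and Eci2 was counted at 137 ± 6.9 and 142 ± 9.03 CPM in the GFP and arcA livers. The treatment of reads that fit both genes was not given in the sources used here.

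The other auxiliary enzymes did not pass the test. Eci1, the mitochondrial isomerase, had a log2 fold change of -0.037, and the reductases Decr1 (mitochondrial) and Decr2 (peroxisomal) -0.11 and 0.013. Ech1, a dienoyl-CoA isomerase of both organelles, stood at 363 ± 27.7 and 356 ± 32.1 CPM (SD, n = 8 each), a log2 fold change of -0.031. Acad11, an acyl-CoA dehydrogenase of both organelles, had 253 ± 14.7 and 272 ± 21.3 CPM, a log2 fold change of 0.10 (interval -0.014 to 0.22, adjusted p = 0.265).

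Of the peroxisomal spiral, Ehhadh, Acaa1b and, in the GFP group, Crot varied widely between livers, with coefficients of variation in GFP of 25.1%, 36.2% and 17.5%, while Hsd17b4 and Acaa1a, at 7.06% and 8.75%, lay within the 3.11% to 9.78% of the mitochondrial spiral. Ehhadh, the bifunctional enzyme of the straight-chain branch, ranged from 243 to 479 CPM (median 399) in GFP and from 322 to 585 CPM (median 414) in arcA. GFP 3 and GFP 5, at 245 and 243 CPM, lay below the other 6 GFP livers. The log2 fold change was 0.15, with an interval from -0.19 to 0.49 (adjusted p = 0.632). Hsd17b4, the other bifunctional enzyme, which also serves branched chains and bile acid precursors, was at 515 ± 36.4 and 525 ± 32.1 CPM (SD, n = 8 each), a log2 fold change of 0.029.

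The peroxisomal thiolases Acaa1a and Acaa1b are near-identical copies on chromosome 9, with coding sequences that agree at 96.5% of 1272 bases and share 37.9% of 50-base stretches, so their split is uncertain. Acaa1a had 293 ± 25.7 and 311 ± 29.2 CPM, a log2 fold change of 0.086. Acaa1a also overlaps the opposite-strand gene Myd88, and whether the counting used strand was not given in the sources used here. Acaa1b ranged from 722 to 2078 CPM (median 1219) in GFP and from 979 to 1554 CPM (median 1195) in arcA, a log2 fold change of 0.012 with an interval from -0.40 to 0.42. Its lowest GFP livers were again GFP 3 and GFP 5, at 722 and 740 CPM.

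Crot, the carnitine octanoyltransferase that prepares shortened chains for export from the peroxisome, ranged from 317 to 573 CPM (median 418) in GFP and from 459 to 562 CPM (median 509) in arcA. All 8 arcA livers lay above the GFP median, yet none above the highest GFP liver, GFP 3. The log2 fold change was 0.25 (SE 0.0886, interval 0.07 to 0.44) and missed the threshold with an adjusted p of 0.0707. Without GFP 3 it was called, at 0.32 with an adjusted p of 0.0116, and it was called in 5 of 14 other alternatives, DESeq2 and limma voom among them. Under hepatocyte marker scaling it was at 0.055 (adjusted p = 0.636).

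The acyl-CoA thioesterases, which free fatty acids from coenzyme A, lie in 1 cluster on chromosome 12. Acot1, the cytosolic form, ranged from 22 to 44.2 CPM (median 32.8) in GFP and from 32.4 to 55.1 CPM (median 46.2) in arcA, with 7 of 8 arcA livers above the GFP median. Its log2 fold change of 0.44 (SE 0.136, interval 0.15 to 0.72) lay at the threshold, with an adjusted p of 0.0506. It was called without GFP 2, without arcA 3 and without arcA 5 (lowest adjusted p 0.0224) and in 5 of 14 other alternatives, and the adjusted p reached 0.105 in the other fits without 1 liver. Under hepatocyte marker scaling it was at 0.24 (adjusted p = 0.228). Acot1 and the mitochondrial Acot2 agree at 95.6% of 1236 aligned coding bases, so reads could again be shared.

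Acot2 had a log2 fold change of -0.19 (interval -0.59 to 0.21), and the peroxisomal Acot3 and Acot4 had 0.26 (interval -0.51 to 1.03) and 0.064 (interval -0.38 to 0.51). None of these 3 passed the test, with adjusted p-values of 0.592, 0.719 and 0.895. Acot3 and Acot4 were low in 1 liver, GFP 1. That liver had 6.25 CPM of Acot3 (279 counts) against 38.8 to 87.6 CPM in the other GFP livers, whose median was 9.43-fold higher. Without GFP 1 the log2 fold change was 0.091 for Acot3 and -0.066 for Acot4. It had 12 CPM of Acot4 against 30.8 to 45.9, and 0.269 CPM of the neighbouring Acot5 (12 counts) against 0.519 to 1.7.

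Other genes of GFP 1 were not low to the same degree. Acot6, the last gene of the cluster, had 3.65 CPM in GFP 1 against 2.96 to 5.34 in the other GFP livers, and Acot2 had 14.7 against 13.7 to 36.4. Acot1, at 22 CPM, was the lowest of its group. GFP 1 also had the lowest Eci3 of all 16 livers, 2.15 CPM, and the lowest Ppara of the GFP livers, 62.3 CPM against 65.1 to 117. In all, 8 of 35 members were lowest in GFP 1 among the GFP livers. Its Ehhadh (354 CPM) and Cpt1a (233 CPM) lay within the range of the other GFP livers. Without GFP 1 the log2 fold change of Eci3 was 1.03 (adjusted p = 0.00496).

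**Figure D3:**
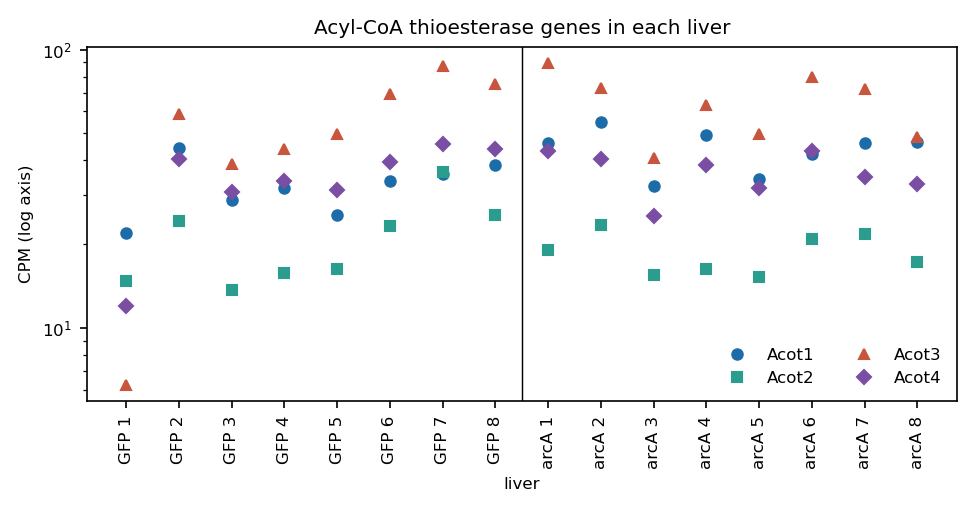
CPM on a logarithmic vertical axis for Acot1, Acot2, Acot3 and Acot4 in each liver on the horizontal axis, GFP 1 to 8 left of the line and arcA 1 to 8 right of it. In GFP 1, Acot3 (6.25 CPM) and Acot4 (12 CPM) lie below all other livers.

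Bdh1, which interconverts the ketone bodies acetoacetate and 3-hydroxybutyrate, ranged from 174 to 314 CPM (median 216) in GFP and from 180 to 245 CPM (median 200) in arcA. The log2 fold change was -0.12 (interval -0.33 to 0.081, adjusted p = 0.481), with GFP 7 and arcA 6 the highest livers of their groups. Pdk4, the kinase that holds pyruvate dehydrogenase inactive when fat is burned, was low throughout, at 6.49 to 17 CPM (median 10) in GFP and 5.33 to 12.8 CPM (median 8.4) in arcA. Its log2 fold change was -0.28, with an interval from -0.76 to 0.19 (adjusted p = 0.479).

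Levels can be set against each other per kilobase of exon, with a limit. The length joins all annotated exons of a gene and can exceed that of its transcripts, so the order depends on the annotation. For Eci2 it was 5540 bases, with 1173 coding, and for Eci3 1418 bases, with 951 coding. In the GFP livers the thiolases Acaa1b (629 ± 228 CPM per kilobase) and Acaa2 (618 ± 19.2) stood highest (SD, n = 8 each) and did not differ beyond their spread. Etfb followed at 323 ± 24.8, then Etfa and Ech1, both at 159, and Hsd17b4 at 151, which did not differ beyond their spread. The middle of the order ran from Ehhadh (128 ± 32) through Acadl, Acadm, Hadh and Acads (102 to 93.9) to Acsl1 (54.7 ± 5) and Cpt1a (33.5 ± 5.77). The lowest were Acot4 (5.19), Eci3 (3.55 ± 1.47), Pdk4 (2.99 ± 1.09) and Ppargc1a (1.64 ± 0.438). In the arcA livers Eci3 reached 7.85 ± 1.87 and Acsl1 72.4 ± 5.76 CPM per kilobase, so Eci3 stayed far under Eci2 (25.7 ± 1.63).

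**Figure D4:**
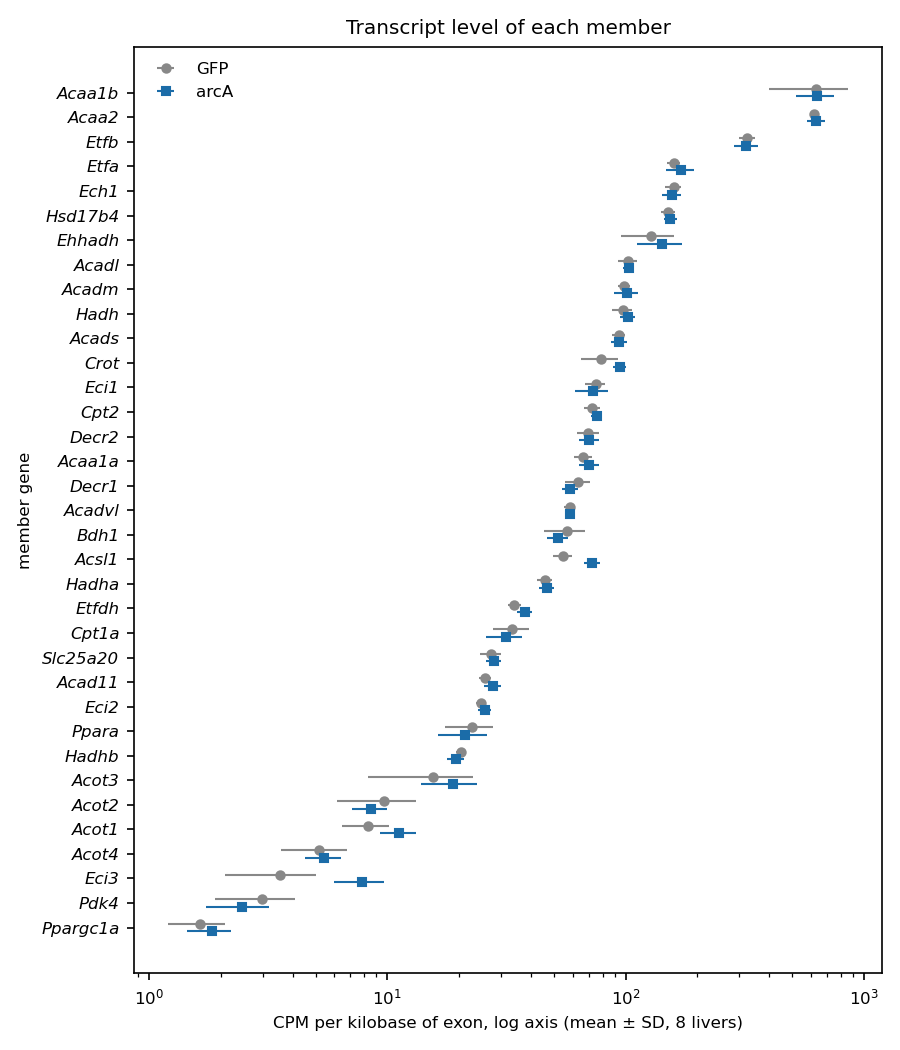
Mean level of each member in CPM per kilobase of exon on a logarithmic horizontal axis, with bars for the SD over 8 livers, GFP in grey and arcA in blue; members are in rows from the highest to the lowest GFP level. Levels run from 629 for Acaa1b to 1.64 for Ppargc1a, and Acsl1 and Eci3 show the shifts called by the test.

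The members also differed in how much they varied among livers of the same group. Within the GFP group the coefficient of variation of the CPM was 3.11% for Acaa2 and 4.65% for Hadhb, against 47% for Acot3, 41.5% for Eci3, 36.5% for Pdk4, 36.3% for Acot2 and 36.2% for Acaa1b. Members often shared their extreme livers. The same counts over all genes tested were not made, so whether this is particular to the members is not known. Of the 35 members, 16 were lowest in GFP 5 among the GFP livers and 13 were highest in GFP 7. Among the arcA livers, 18 were lowest in arcA 3, 10 were lowest in arcA 8, and 10 were highest in arcA 2. GFP 2, 3 and 5 also carried 11.8%, 18.1% and 19.4% of their counts on Gm42418, a gene model overlapping ribosomal RNA, against 2.29% to 7.37% in the other 13 livers, and its part in these levels was not tested. Without GFP 2, 3 and 5 together Acsl1 was at 0.37 (adjusted p = 0.0113) and Eci3 at 1.18 (adjusted p = 0.0363).

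**Figure D5:**
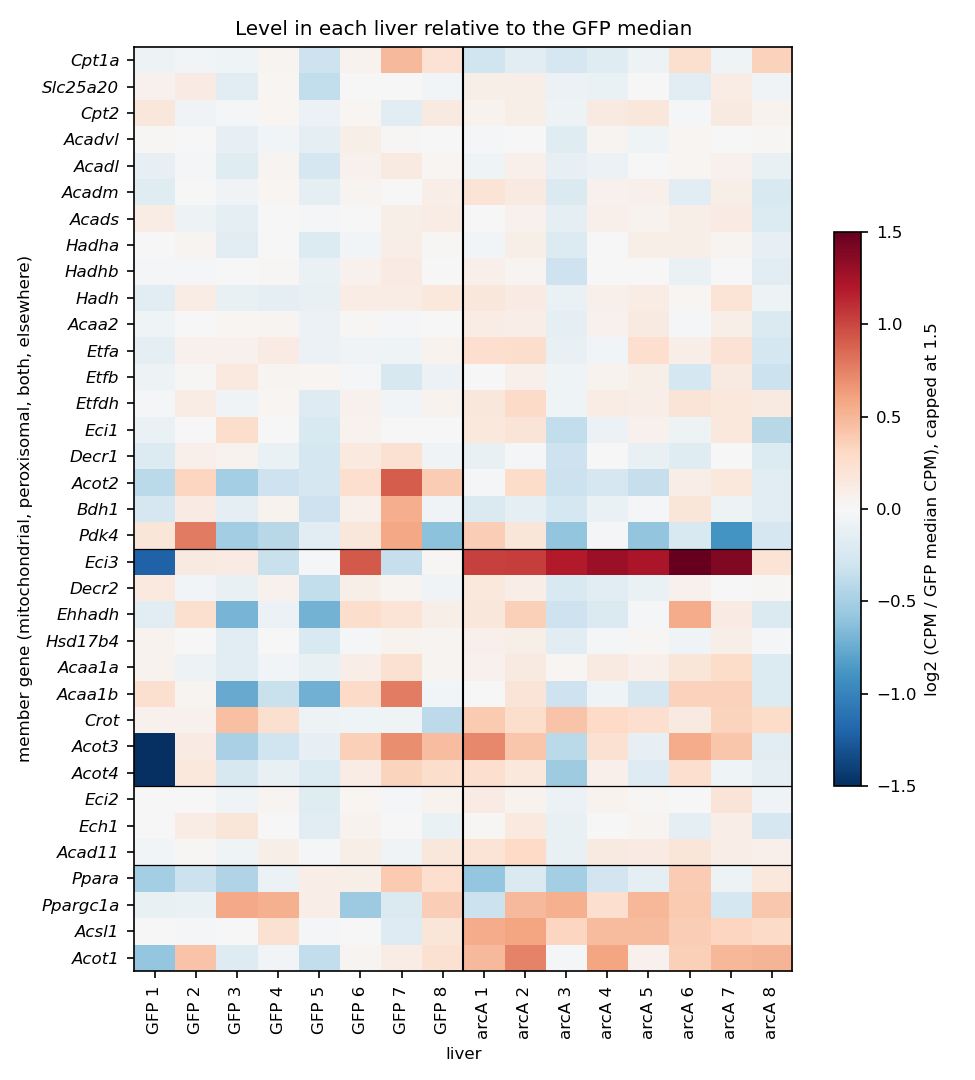
Each member (rows, by compartment) in each liver (columns), coloured by the log2 ratio of its CPM to the GFP median, capped at 1.5 in either direction. The rows of Eci3 and Acsl1 are red across the arcA livers, arcA 3 and arcA 8 are pale blue for many mitochondrial members, and GFP 1 is dark blue for Acot3 and Acot4.

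The other genes of the pathway, 109 of which 105 were tested, included 6 called higher and 2 lower. Of all genes tested, 4.27% were called higher and 6.57% lower, and these shares also stand beside the counts by role below. The median log2 fold change of the other pathway genes was 0.047. Of 20 further peroxisomal genes, 3 were called higher and 0 lower. Hacl1, the lyase of alpha-oxidation, ranged from 235 to 446 CPM (median 350) in GFP and from 447 to 643 CPM (median 533) in arcA. Its groups did not overlap, and the log2 fold change was 0.65 (SE 0.117, interval 0.40 to 0.89, adjusted p = 0.00166). Catalase, Cat, which removes hydrogen peroxide, had a log2 fold change of 0.25 (adjusted p = 0.0412).

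Hacl1 was called in each of the 16 fits without 1 liver. Cat was called only without GFP 1, 4 or 8 or arcA 4 or 8 among these fits (highest adjusted p 0.0981). Under hepatocyte marker scaling Cat was at 0.047 and not called, and Hacl1 was at 0.45 (adjusted p = 0.00769).

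Of the 20 tested genes listed under other mitochondrial oxidation, 1 was higher and 1 lower. The list also holds Nudt7 and Nudt19, whose products are peroxisomal, and neither was called. Acsm1, a medium-chain acyl-CoA synthetase, ranged from 159 to 237 CPM (median 224) in GFP and from 254 to 300 CPM (median 286) in arcA, with no overlap and a rise of 0.42 on the log2 scale (SE 0.0732, adjusted p = 0.00106). Under hepatocyte marker scaling Acsm1 was at 0.22 (adjusted p = 0.0211). Acot9, a mitochondrial thioesterase, fell by 0.45 on the log2 scale, from 4.13 ± 1.1 to 3.02 ± 0.315 CPM (SD, n = 8 each; adjusted p = 0.0361). It was not called without any 1 of GFP 2, 6 or 7 or arcA 1, 3, 4 or 5 (highest adjusted p 0.0722), and with surrogate variables it was at -0.20 (adjusted p = 0.282). The summed macrophage markers were also lower in the arcA livers, 146 to 458 against 286 to 494 CPM, with 7 of 15 markers called lower and none at 0, and their part in the fall of Acot9 was not tested.

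Uptake, activation and fuel control were measured as well. Slc27a5, a bile acid and fatty acid ligase of the liver, ranged from 628 to 961 CPM in GFP and from 940 to 1177 CPM in arcA, a rise of 0.37 on the log2 scale (SE 0.0794, adjusted p = 0.00482). Under hepatocyte marker scaling it was at 0.17 (adjusted p = 0.0516). Stk11, the kinase that activates AMPK, had 65.8 ± 2.83 and 72.2 ± 3.44 CPM (SD, n = 8 each), a log2 fold change of 0.14 (adjusted p = 0.042) that turned to -0.068 under that scaling. It was called in 4 of the 16 fits without 1 liver, those without GFP 1, GFP 5, arcA 1 or arcA 2. Of 10 uptake and activation genes 1 was called, Slc27a5, and of 14 tested genes of malonyl-CoA and energy control 1 was called, Stk11.

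Ketone synthesis did not move past the test. Of its 7 genes, 0 were called and 1 had an unadjusted p under 0.05 (Bdh2), against 3608 of the 14476 genes tested. The median of their log2 fold changes was -0.02, with a range from -0.10 to 0.19. Bdh2, a cytosolic hydroxybutyrate dehydrogenase, ranged from 11.8 to 18.3 CPM (median 13.9) in GFP and from 13.1 to 19 CPM (median 17.2) in arcA, a log2 fold change of 0.19 (interval 0.012 to 0.37, adjusted p = 0.169). Acat1, the thiolase that joins acetyl-CoA units, had 324 ± 32.7 and 340 ± 29.1 CPM (SD, n = 8 each), a log2 fold change of 0.068 (interval -0.076 to 0.21). Slc16a1, a monocarboxylate transporter that carries ketone bodies, had 60 ± 11.9 and 57.7 ± 4.22 CPM, a log2 fold change of -0.058 (interval -0.27 to 0.16).

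Of 17 genes listed as partners of PPARA, a list that also holds the receptors Ppard, Pparg and Esrra, 0 were called. At an unadjusted p under 0.05 stood 4 of the 17, against 3608 of the 14476 genes tested. The smallest p was that of Lpin2, at -0.39 with an adjusted p of 0.0504. Lpin2 was called lower in 11 of 14 other alternatives, at -0.41 with the replicate block (adjusted p = 0.00517) and at -0.45 with surrogate variables (adjusted p = 0.0191). Of 17 tested further targets of PPARA, 0 were higher and 1 was lower. Txnip, a glucose-responsive inhibitor of thioredoxin, fell by 0.53 on the log2 scale, from 34.4 ± 5.34 to 23.8 ± 3.04 CPM (SD, n = 8 each; adjusted p = 0.00145). Cyp4a12a, an omega-hydroxylase, ranged from 279 to 565 CPM and from 410 to 844 CPM, a log2 fold change of 0.54 with an adjusted p of 0.059. Cidec, a lipid droplet protein, ranged from 2.96 to 26.4 CPM and from 2.68 to 5.43 CPM, a log2 fold change of -1.31 with an adjusted p of 0.0579.

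The promoters of the 2 called members and of Eci2 are shown because Eci3 was called and its neighbour Eci2 was not. Each run is the 120 bases before the first listed RefSeq start site, on the gene's strand of GRCm38.p6. For Eci2 that site lies within the annotated span of the gene.
Acsl1, chr8:46470917-46471036, plus strand: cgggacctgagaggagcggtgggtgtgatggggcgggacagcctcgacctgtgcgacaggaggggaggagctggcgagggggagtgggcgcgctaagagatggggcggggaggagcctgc
Eci3, chr13:34963810-34963929, minus strand: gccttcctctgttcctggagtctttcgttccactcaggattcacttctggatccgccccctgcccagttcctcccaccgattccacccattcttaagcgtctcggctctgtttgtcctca
Eci2, chr13:34994145-34994264, minus strand: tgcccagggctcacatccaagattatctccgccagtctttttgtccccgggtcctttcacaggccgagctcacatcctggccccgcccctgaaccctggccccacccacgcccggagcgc
PPARA binds with its partner RXR to direct repeats of the half-site AGGTCA spaced by 1 base. Windows of 300 bases, 250 before and 50 after the start, were found for 32 of 35 members. With 1 window a gene, the first listed, they were searched on both strands for AGGTCANAGGTCA with up to 2 mismatches in its 12 fixed bases. A match was found in 3 of 32 members (9.38%), against 3.81% of 27025 genes, and the half-site AGGTCA itself, which such a match can overlap, in 5 of 32 members against 4335 of 27025 genes. The windows of Acsl1, Eci3 and Eci2 held no match, and any other start sites of these genes were not searched. A match is a description of letters and not a bound site.

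The 3 members with a match were Acot4, Etfa and Slc25a20, and none of them was called. Those of Acot4 and Etfa, before the start site and on the strand opposite to the gene, are shown in capitals.
Acot4, chr12:84038342-84038378, plus strand: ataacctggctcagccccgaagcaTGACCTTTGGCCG
Etfa, chr9:55512284-55512344, minus strand: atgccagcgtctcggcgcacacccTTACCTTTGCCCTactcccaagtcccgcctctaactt
Acot4 was at 34.6 ± 10.7 CPM in GFP and 36.2 ± 6.23 CPM in arcA, and Etfa at 292 ± 18.7 and 313 ± 41.8 CPM (SD, n = 8 each).

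Total counts ranged from 28912561 to 53520828 per GFP liver and from 37325608 to 45874793 per arcA liver. The rarest member, Eci3, still had 1577 counts over the GFP livers. Beside the hepatocyte markers, markers of some other cell types moved with the groups. Summed T and NK cell markers were at 10.4 to 23.4 CPM in GFP and 0.845 to 3.65 CPM in arcA. Of these 13 markers 10 passed the filter, and all 10 were called lower. B and plasma cell markers were at 53.6 to 305 and 2.37 to 4.01 CPM. Of these 8 markers 5 passed the filter, and all 5 were called lower. Stellate cell markers were at 275 to 355 and 176 to 262 CPM (6 of 9 tested called lower). Endothelial cell markers were at 75 to 121 CPM in GFP and 66.9 to 99.4 CPM in arcA (1 of 7 called lower). Cholangiocyte markers were at 15.9 to 28.8 CPM in GFP and 17.4 to 47 CPM in arcA (0 of 5 called). None of these markers was at 0 over a whole group. Their part in the values of the members was not tested.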

How the data were processed

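Gene counts of 16 liver libraries were analysed, 8 per group. Each deposited value is a raw count of reads for 1 gene symbol; per the submitters' processing notes, featureCounts 1.4.6-p5 (Subread), STAR 2.5.1a and bcl2fastq were used with GRCm38. Strand setting, annotation and handling of mates were not given in the sources used here. Of 40757 lines, 348 exact copies and 85 repeats of a symbol (47 counts) were removed. Of counts from 1 to 20, 69.8% were even, as counting mates separately would give, so the number of fragments is uncertain.

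The test was edgeR 4.0.16 (R 4.3.3; filterByExpr, TMM scaling, robust quasi-likelihood F test, group as the only term), with Benjamini-Hochberg adjustment over 14476 genes. From the deposited counts, CPM were calculated with TMM-scaled totals, and per kilobase of GENCODE M21 exon. Promoter sequences came from the RefSeq table of GRCm38.p6. Alternatives were other scalings and filters, DESeq2 1.42.0, voom of limma 3.58.1, sva 3.50.0 (5 surrogate variables), a replicate block, left-out livers and, added after seeing the data, halved counts. The fits were tested on simulated data. Every member was named; of each role of the other pathway genes, up to 4 with the smallest p were eligible. Some genes that the rule takes are counted in their lists but not reported here. Members, lists and this rule were chosen with earlier results of these data known.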

Additional observations from a re-analysis of the deposited data

Results flagged for a closer look

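Of 128 groups of 8 livers checked, 11 had a liver whose gap to the nearest of the others exceeded 0.526 of the group's range, which chance gives in about 1 group in 20; 5 of 70 groups of members were among them. The members were Acadvl in arcA 3 (140 CPM, others 152 to 163), Eci3 in GFP 6 (9.44 CPM, others 2.15 to 5.45), Acot4 in GFP 1 (12 CPM, others 30.8 to 45.9), Bdh1 in GFP 7 (314 CPM, others 174 to 235) and Bdh1 in arcA 6 (245 CPM, others 180 to 211). Without GFP 6 the log2 fold change of Eci3 was 1.35.

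Among the other genes of the pathway, Acot9 stood at 6.64 CPM in GFP 7 (others 3.05 to 4.34) and at 2.37 CPM in arcA 3 (others 2.94 to 3.43). Sirt5, a mitochondrial deacylase, was at 18.4 CPM in arcA 1 (others 14 to 15.6), and Pdk2, a pyruvate dehydrogenase kinase, at 208 CPM in GFP 8 (others 151 to 178). The phosphatidate phosphatases Lpin2 and Lpin1 were both highest in arcA 6, at 226 CPM (others 111 to 158) and 46.4 CPM (others 16.2 to 28). Without arcA 6, Lpin2 was called lower at -0.51 (adjusted p = 0.00139).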

How the results depend on the processing

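Acsl1, Eci3, Hacl1, Acsm1 and Txnip were called in all 16 fits without 1 liver and all 14 other alternatives. Without 1 liver in turn, 2 to 3 members were called higher and 0 lower, 389 to 620 genes of all tested higher and 732 to 1096 lower, and 3 to 7 other pathway genes higher and 1 to 10 lower. Members called higher numbered 4 with DESeq2, 4 with limma voom and 8 with surrogate variables, in fits that called 777, 824 and 682 of all genes higher (added with surrogate variables: Etfdh, Acaa1b, Crot, Acot1, Acot3 and Acot4). Scaling on hepatocyte markers gave 11 members lower, 78 genes of all higher and 4660 lower, and 2 other pathway genes higher and 33 lower; Acadvl (-0.20), Acadl (-0.20), Hadha (-0.19), Acaa2 (-0.18) and Stk11 (-0.068) changed sign there. All genes called higher were 253 with library size alone, 407 with a filter of 1 CPM and 369 without GFP 2, 3 and 5. Other pathway genes called higher were 3 with library size alone, 10 with limma voom, 14 with surrogate variables and 3 without GFP 2, 3 and 5. Those called lower were 4 with upper-quartile scaling, 1 with library size alone, 4 with the filter of 1 CPM, 6 with DESeq2, 5 with limma voom, 9 without GFP 2, 3 and 5, and 4 with halved counts. The scaling on hepatocyte markers moves the median of all genes by -0.20 by its construction; for the other settings the cause was not tested. In all, 19 members changed sign under hepatocyte marker scaling, of which Acadvl, Acadl, Hadha and Acaa2 were called lower there, and 0 to 9 under each other setting; a change of sign of a gene called in neither fit was given no direction.

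The labels number the livers 1 to 8 in both groups but do not say whether the numbers mark pairs. Correlations of same-numbered livers' deviations ran from -0.0487 to 0.159, and 2 of 8 livers correlated best with their own number. Such correlations cannot decide whether the livers were paired, since pairs need not be alike in expression. With the replicate block, 4 members and 592 of all genes were called higher, Acot1 at 0.45 (adjusted p = 0.00624) and Crot at 0.27 (adjusted p = 0.036) in addition.

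Depth does not limit the abundant members, but some intervals are wide. Among these are the intervals of Acot3, Eci3, Pdk4, Acot4, Acaa1b, Acot2, Ppargc1a, Ehhadh and Ppara. A change of up to 2.05-fold for Acot3 lies within its interval. Acaa1b had 423311 counts over the GFP livers, and its interval is wide all the same.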
